A study of Mus musculus and Homo sapiens with 42 samples.

Results

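EμMyc B-cell lymphomas that lacked both copies of Chd9 were compared with lymphomas that kept 1 copy. The members were the 3 Chd9-/- tumours (KO) and the 3 Chd9+/- tumours (HET), 6 of the 42 samples of the series, and the comparison was restricted to genes on chromosomes 1 to 19, which were 20235 of the 23156 genes counted and 12302 of the 13065 genes that passed the filter on low counts. All 6 tumours, and the 3 Chd9 wild-type tumours (WT) used below only as background, were lymph nodes taken from moribund mice that carried the EμMyc transgene, from a line kept on FVB/NCrl, and were snap-frozen before RNA-seq. The mutant allele had lost the coding exons between its loxP sites through a β-actin Cre that acts in every tissue including the germline, so the host cells in each node carried the same genotype as the lymphoma. It was made in 129P2 embryonic stem cells and crossed to FVB for 2 generations, and the ages of the mice were not given in the sources used here.

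CHD9 belongs to the chromodomain helicase DNA-binding family, ATP-dependent enzymes that slide or evict nucleosomes, and sits in the subfamily that also holds CHD6, CHD7 and CHD8. In the EμMyc mouse, the enhancer of the immunoglobulin heavy chain locus drives Myc in B cells from early in their development, and clonal pre-B or B-cell lymphomas follow once additional lesions, often in the Arf-p53 pathway, have been acquired. Lymphomas that arise in different mice are therefore usually different clones with different rearranged antigen receptors and collaborating events, and a lymph node filled by one also holds T cells, macrophages, granulocytes, vessels and stroma. In such bulk tissue, fewer cells of a type and less RNA per cell cannot be told apart.

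The 6 tumours held 11729052 to 14670464 counts each. Levels are given in CPM, counts divided by a library size that was scaled by the trimmed mean of M values over the 9 lymphomas, and fold changes (log2FC, KO against HET, ± SE, n = 3 tumours per genotype) come from a fit to the 6 tumours alone. Pairs of tumours correlated across genes at r = 0.916 to 0.974, the highest between HET1 and WT3. KO3 had r of at least 0.944 with each of the others. Cd79a, a defining B-cell marker, was at 511 to 929 CPM in HET and 466 to 491 CPM in KO. The sexes were unevenly spread. Xist, the RNA that coats the inactive X, had 77041 counts in HET1 but 26 and 11 in HET2 and HET3, against 84531, 33101 and 65513 in the KO tumours, and the 5 Y-linked genes summed to 2683 and 3219 counts in HET2 and HET3 and to at most 2 in the others. All KO tumours but only HET1 among the HET tumours thus carried Xist, so sex moved with genotype, and values from the 4 tumours with Xist, where HET1 is the single heterozygous tumour, are given for some results below.

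Chd9 itself, counted over its locus on chromosome 8 (GRCm38, 90828302 to 91054516), was read first as a check of the labels. It had 44.8, 28.1 and 44.2 CPM in the HET tumours and 13.2, 9.22 and 13.6 CPM in the KO tumours, beside 79.8, 73.7 and 65.8 CPM in WT. The 3 genotypes did not overlap, and every tumour lay where its label placed it. The means were 39 ± 9.48 (SD, n = 3) and 12 ± 2.41 (SD, n = 3), a log2FC of -1.72 ± 0.29, with an unadjusted p of 0.000489 that was the second smallest among the autosomal genes. It did not pass edgeR's quasi-likelihood test after Benjamini-Hochberg adjustment (p-adj = 0.999) and did pass the DESeq2 Wald test (log2FC -1.71 ± 0.32, p-adj = 0.000361). The 145 to 178 counts that remained in each KO tumour are reads from the whole gene model. The allele keeps exons outside the loxP sites that are still transcribed, and the table does not say which exons the reads came from.

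Of the other members of the family, none passed either test. Chd6, a close relative of Chd9, was at 103, 120 and 96.9 CPM in HET and 57.4, 82.9 and 82.2 CPM in KO. Its groups did not overlap, with a log2FC of -0.54 ± 0.20 (unadjusted p = 0.0287), and 4.88% of autosomal genes were separated with KO lower. The WT tumours, at 101, 91.3 and 70.2 CPM, reached into both ranges, WT1 with HET and WT3 with KO. Chd7, the remodeler mutated in CHARGE syndrome, had 60.8, 23.9 and 20.3 CPM in HET against 90.6, 79.7 and 37.4 CPM in KO (log2FC 0.97 ± 0.50, unadjusted p = 0.0913), and its groups overlapped through HET1 and KO3. Chd8 differed little, at 157, 214 and 140 CPM against 160, 198 and 129 CPM (log2FC -0.08 ± 0.24). Among the subfamilies further away, Chd1, Chd2 and Chd4 had log2FC of 0.07 ± 0.34, -0.39 ± 0.21 and 0.07 ± 0.26. Chd3, a helicase of the NuRD complex, varied far more between tumours of one genotype than between genotypes. It stood at 14.1, 183 and 136 CPM in HET and at 5.68, 239 and 115 CPM in KO, so that KO1 and HET1 were the low tumours, and its log2FC was 0.09 ± 1.20. Chd5 was below 1 CPM in all 9 tumours and was not tested. In all, 4 of the 8 members tested were higher and 4 lower in KO, with a median log2FC of -0.01 beside -0.02 over all autosomal genes tested.

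**Figure D1:**
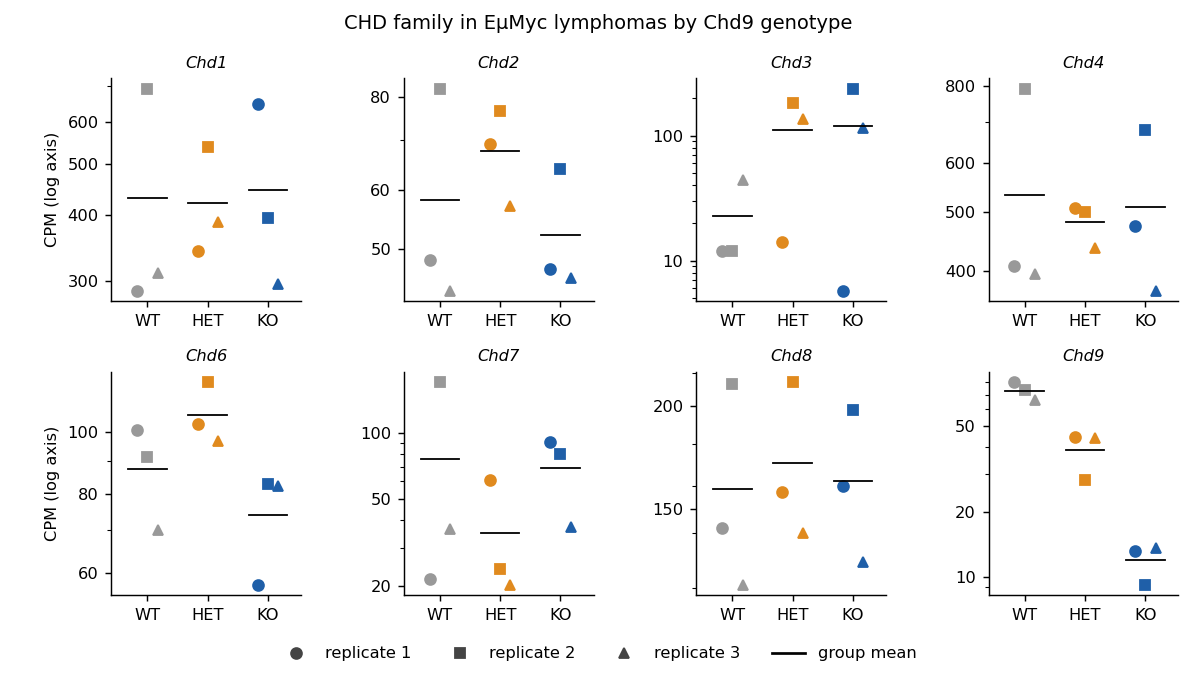
CPM (log axis) of the 8 tested CHD family genes in each lymphoma, with the genotype on the x axis, symbols for the replicates and a line for the group mean. Chd9 falls in 3 separate bands, from 65.8 to 79.8 CPM in WT down to 9.22 to 13.6 CPM in KO, and Chd3 spans 5.68 to 239 CPM within KO.

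The question the comparison asks is which genes differ when the remaining Chd9 copy is lost. With edgeR's quasi-likelihood F-test, adjusted by Benjamini-Hochberg over all genes tested, 0 autosomal genes were called higher and 0 lower in KO at p-adj under 0.05 and an absolute log2FC above 1 (0% of 12302 tested), and the smallest p-adj was 0.999. At an unadjusted p under 0.05 there were 341 genes, 135 higher (1.1% of those tested) and 206 lower (1.67%), or 2.77% together. That share is below the 0.05 that the threshold would give on average if no gene differed, so an unadjusted p under 0.05 is used below only to describe. The DESeq2 Wald test on the same genes called 11, of which 6 were higher (0.0488% of those tested) and 5 lower (0.0406%) in KO, or 0.0894% together, with 447 at an unadjusted p under 0.05. Leaving out any of the 6 tumours left the edgeR count at 0. Under DESeq2 the count without 1 tumour ran from 11 to 42 genes, and 6 of the 11 genes were called in each of the 6 fits with a tumour left out: Chd9, Socs2, Cd209b, Lrrn4, 1700048O20Rik and Uchl1. The ranges of the HET and KO tumours did not overlap for 1052 autosomal genes, 8.55% of those tested, and 4.88% were separated with KO lower.

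The genes described next are the 6 with the smallest p in each direction among those whose groups did not overlap, plus the genes called by DESeq2, 16 in all with Chd9. They were picked for this separation, so it is a description of them and supports nothing. None passed the edgeR test (p-adj = 0.999 for each). Socs2, a suppressor of cytokine signalling induced through STAT5, had the smallest p. It was at 23.4, 17 and 20.1 CPM in HET and 89.8, 125 and 61.7 CPM in KO (log2FC 2.18 ± 0.29, DESeq2 p-adj = 7.71e-07). All 3 KO tumours were at least 61.7 CPM and all 3 HET tumours at most 23.4 CPM, but WT1 reached 89.4 CPM while WT2 and WT3 stood at 16.7 and 18.7 CPM. In the 4 tumours with Xist its log2FC was 1.98.

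Cd209b encodes SIGN-R1, a C-type lectin of marginal zone and medullary macrophages. Its level was 5.31, 4.23 and 9.46 CPM in HET and 27.9, 53.9 and 24.0 CPM in KO (log2FC 2.46 ± 0.45, DESeq2 p-adj = 0.000361). The WT tumours, at 1.52 to 3.23 CPM, lay below both groups, and KO2 was the highest of the 9. Marco, a scavenger receptor of the same macrophages, had 16.4, 6 and 5.12 CPM in HET and 25.9, 69.7 and 24.1 CPM in KO (log2FC 2.12 ± 0.61, unadjusted p = 0.0101, DESeq2 p-adj = 0.153), again without overlap and with KO2 highest. The rest of the macrophage and monocyte list did not follow. Over its 16 tested members, 9 were higher and 7 lower in KO, 1 of 16 (Marco) had an unadjusted p under 0.05, the median log2FC was 0.04, and the summed level was 1043 to 1322 CPM in HET and 910 to 1823 CPM in KO. Whether a macrophage subset that carries both SIGN-R1 and Marco took part in the Cd209b difference was not tested.

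Lrrn4, which encodes a leucine-rich repeat membrane protein, was at 7.17, 8.11 and 8.11 CPM in HET and 22.8, 19.1 and 18.1 CPM in KO (log2FC 1.34 ± 0.25, DESeq2 p-adj = 0.00277). The HET tumours were the group that stood apart here, since the WT tumours had 20.2 to 36.1 CPM. Tgfb2, a ligand of the TGF-β family, rose from 1.94, 1.09 and 2.49 CPM to 26.5, 16.7 and 5.26 CPM by DESeq2 (p-adj = 0.0026), with a log2FC of 3.12 ± 0.66 in edgeR. WT1 was at 17.5 CPM, so that high Tgfb2 was found in a wild-type tumour too, and the DESeq2 call was lost without KO1 or without KO2. Islr2, which encodes an immunoglobulin-domain protein of the nervous system, was at 2.11, 16.6 and 3.06 CPM in HET and 92.9, 68.0 and 36.7 CPM in KO (log2FC 3.16 ± 0.82, DESeq2 p-adj = 0.00994). The KO tumours were also above the WT tumours, which had 1.94 to 19.2 CPM, and the log2FC was 4.96 in the 4 tumours with Xist. That call held in 2 of the 6 DESeq2 fits with a tumour left out.

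The remaining genes of this direction were low. 9830147E19Rik, a RIKEN gene, was called by DESeq2 (p-adj = 0.0100) on 0.590, 1.29 and 0.996 CPM in HET and 32.8, 3.31 and 5.64 CPM in KO, and the call was not made without HET1, without HET3 or without KO1. Prtg, encoding protogenin, a receptor of early embryos, had 0.759, 0.954 and 0.498 CPM in HET and 7.15, 3.69 and 2.90 CPM in KO (log2FC 2.60 ± 0.57, DESeq2 p-adj = 0.0785). Its WT levels of 1.82 to 8.60 CPM lay across the KO range. Iglv1, a variable segment of the immunoglobulin lambda chain, had 10, 13 and 11 counts in HET and 75, 44 and 49 in KO (log2FC 2.34 ± 0.51, DESeq2 p-adj = 0.122). The lambda segments resemble each other closely, and reads shared between them may have been counted for one or for none.

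In the other direction, 1700048O20Rik, a RIKEN gene on chromosome 9, was at 14.4, 14.5 and 7.40 CPM in HET and at 0.172, 0.954 and 1.30 CPM in KO (log2FC -3.90 ± 0.71, DESeq2 p-adj = 2.17e-05). The WT tumours, at 2.97 to 18.4 CPM, all lay above KO. Uchl1, a deubiquitinating enzyme of neurons and germinal centre B cells, had 34.5, 9.47 and 44.9 CPM in HET against 0.430, 0.636 and 3.66 CPM in KO (log2FC -4.24 ± 0.96, DESeq2 p-adj = 0.000361). Its WT levels ran from 0.517 CPM in WT2 to 109 CPM in WT3, so both the high and the low state occurred with Chd9 intact. Tmprss3, a membrane serine protease, was similar in that respect, with 34.9, 38.5 and 5.19 CPM in HET, 1.03, 0.636 and 3.43 CPM in KO (log2FC -3.96 ± 0.94, DESeq2 p-adj = 0.00152) and 0.129 to 183 CPM in WT.

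Slc36a4, an amino acid transporter, had 27.7, 39.8 and 23.1 CPM in HET and 4.74, 6.23 and 13.2 CPM in KO (log2FC -1.92 ± 0.44, DESeq2 p-adj = 0.0379). All 3 WT tumours, at 21.8 to 47.9 CPM, lay above KO, but the DESeq2 call held in 2 of the 6 fits with a tumour left out. Cirbp, the cold-inducible RNA-binding protein, was at 73.8, 76.5 and 52.4 CPM in HET and 30.0, 23.5 and 37.3 CPM in KO (log2FC -1.17 ± 0.25, DESeq2 p-adj = 0.0581), with WT at 44.5 to 93.7 CPM. Its KO tumours were the lowest of the 9 lymphomas.

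For Farp1 and Isl1 the HET tumours were the ones that stood apart. Farp1, a guanine nucleotide exchange factor, had 13.9, 12.3 and 11.9 CPM in HET, 3.19, 4.70 and 5.72 CPM in KO and 1.81 to 5.23 CPM in WT (log2FC -1.50 ± 0.34, DESeq2 p-adj = 0.0581). Isl1, a LIM homeobox factor, had 28, 62 and 14 counts in HET and 0, 1 and 2 counts in KO. Against a floor of 3 counts per library it was at least 11.2-fold lower in KO, and it was at or below 0.0758 CPM in the WT tumours. Setting all 16 genes beside the WT tumours, the WT range overlapped the HET range alone for 5, the KO range alone for 4, both for 5 and neither for 2 (Chd9 and Cd209b). Because the genes were separated by choice, their direction in the 4 tumours with Xist was fixed and is no check on sex.

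**Figure D2:**
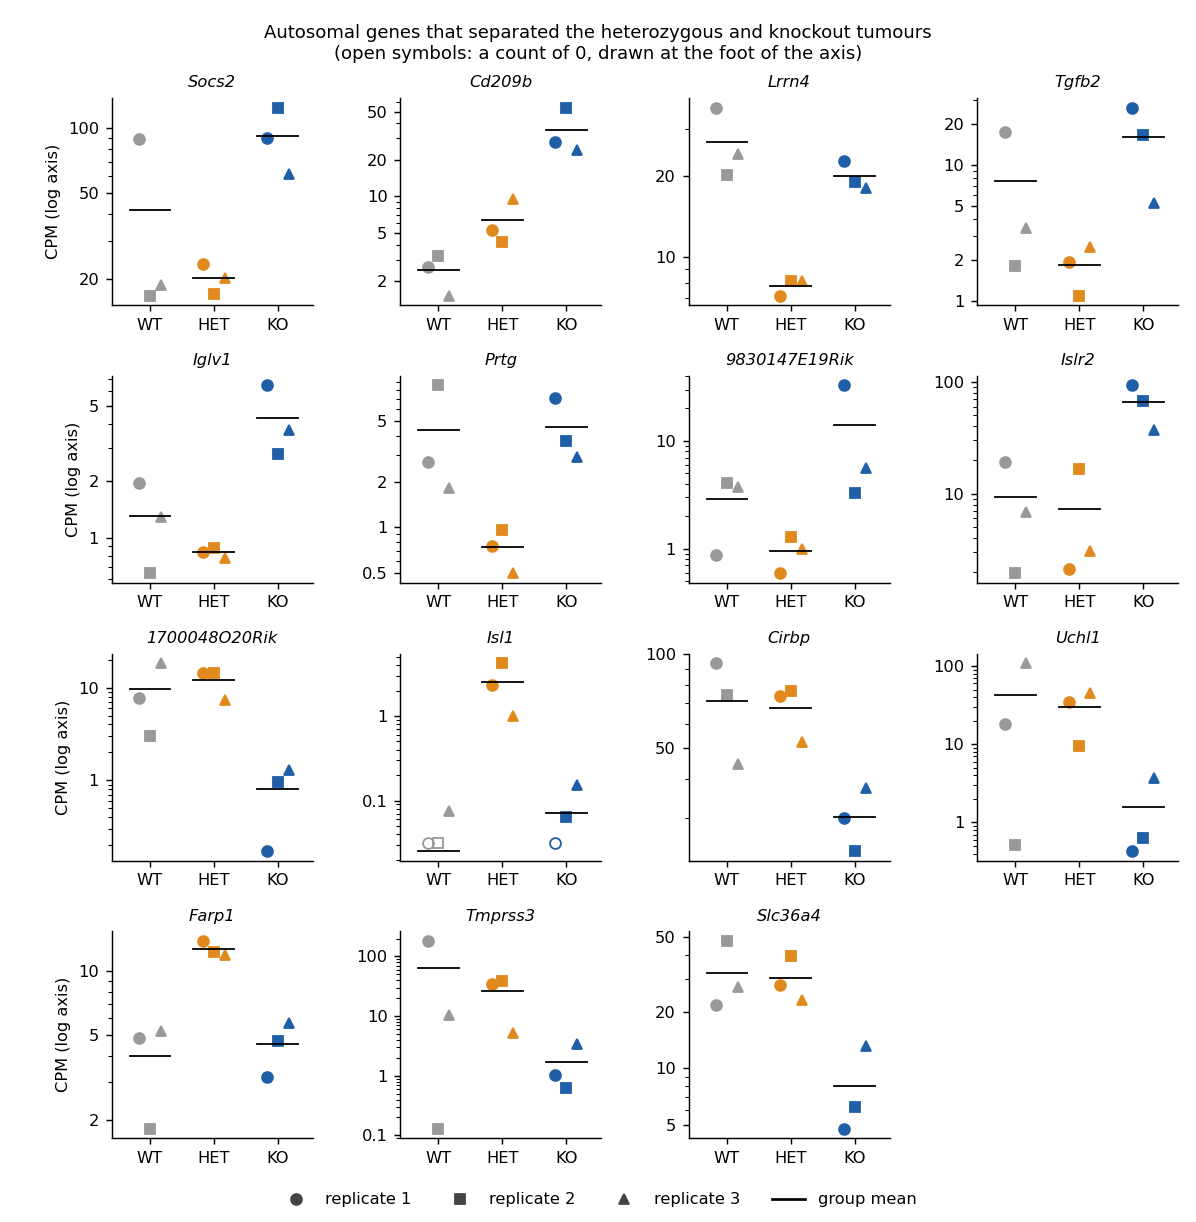
CPM (log axis, a scale per gene) of the 15 leading autosomal genes other than Chd9 in each tumour by genotype, with symbols for replicates and lines for group means. HET and KO do not overlap in any panel, by choice of the genes, while the WT tumours lie with HET (1700048O20Rik, Slc36a4), with KO (Lrrn4, Farp1) or across both (Uchl1, Tmprss3).

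Gene lists for cell types and pathways are described by counts and medians. The neutrophil list stood furthest from the centre: all 11 tested members were lower in KO, with a median log2FC of -1.28, 8 of the 11 had groups that did not overlap (4.88% of autosomal genes did with KO lower) and 5 had an unadjusted p under 0.05 (1.67% of autosomal genes were at that p and lower). With all 6 tumours and the filter on low counts, none passed edgeR or DESeq2, and the same holds for every member of the lists below. In DESeq2 fits chosen after seeing the data, 10 list genes other than Chd9 were called at least once: Ngp without the filter on low counts, Ngp, Mpo, Camp, Marco and Bbc3 without HET1, Iglc2 without HET2, Cd93 without HET3, Lef1 without KO1, and Camp, S100a9 and Pdk4 without KO3. Ngp, neutrophilic granule protein, was at 9.95, 25.5 and 37.0 CPM in HET and 4.74, 4.77 and 7.78 CPM in KO (log2FC -2.08 ± 0.51, unadjusted p = 0.00452). Mpo, the myeloperoxidase of primary granules, was at 3.29, 14.0 and 10.0 CPM against 1.38, 2.16 and 2.14 CPM (log2FC -2.28 ± 0.60, unadjusted p = 0.00618). HET1 was the lowest heterozygous tumour for both. Camp, the cathelicidin of secondary granules, was at 7.17, 15.7 and 19.2 CPM against 3.01, 1.40 and 5.26 CPM (log2FC -2.14 ± 0.60, unadjusted p = 0.00857).

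The granule proteases Elane and Prtn3 had log2FC of -2.05 ± 0.61 and -1.90 ± 0.58 (unadjusted p = 0.0116 and 0.013), at low levels. Elane was at 1.18, 3.88 and 2.56 CPM in HET and 0.689, 0.699 and 0.458 CPM in KO. Prtn3 was at 2.02, 3.75 and 3.48 CPM against 0.43, 0.763 and 1.3 CPM. S100a8, an abundant product of mature neutrophils, was at 45.4, 44.7 and 48.9 CPM in HET and 19.5, 5.59 and 39.8 CPM in KO (log2FC -1.12 ± 0.60). Csf3r, the receptor for granulocyte colony-stimulating factor, had a log2FC of -0.28 ± 0.67. The summed level of the 13 genes in the table was 139 to 223 CPM in HET and 36.9 to 134 CPM in KO, so the groups did not overlap, with KO3 next to HET1. The WT tumours summed to 198, 19.1 and 109 CPM, across both groups. With single tumours left out, the list's median log2FC lay between -1.93 and -0.86, and it was -0.83 in the 4 tumours with Xist.

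T-cell genes were spread by tumour. Of 18 tested, 17 were higher in KO, with a median log2FC of 1.12, but 0 of the 18 had an unadjusted p under 0.05. The list summed to 144 to 179 CPM in HET and to 65.1, 383 and 195 CPM in KO1, KO2 and KO3. Cd3e, a chain of the T-cell receptor complex, had 2.28, 2.04 and 5.4 CPM in HET, and 0, 16.3 and 6.41 CPM in KO, so the knockout tumours held both the lowest and the highest value of the 6. Without KO2 the median log2FC of the list was -0.13. KO1 stood apart for other cell types of the node as well, low for some and high for others. The stromal and fibroblast list summed to 264 CPM there against 814 to 1341 CPM in the other 5, with Col3a1, a fibrillar collagen chain, at 54.8 CPM against 177 to 399 CPM. The endothelial list, at 181 CPM in KO1 and 227 to 330 CPM elsewhere, was likewise lowest there, while the erythroid list was highest, at 373 CPM against 23.8 to 266 CPM, as was the macrophage and monocyte list, at 1823 CPM against 910 to 1322 CPM. In the erythroid list Hba-a2, an adult alpha globin, was the member with an unadjusted p under 0.05 (0.0277), at 1.43, 0.954 and 0.213 CPM in HET and 17.6, 3.05 and 1.37 CPM in KO, and reads shared with its near-identical copy Hba-a1 make its values uncertain. The lists not yet described had medians of 0.64 (NK cell, 6 genes tested), -0.28 (plasma cell, 7), -0.42 (platelet and megakaryocyte, 2), -0.11 (endothelial, 10), -0.38 (stromal and fibroblast, 15), 0.15 (erythroid, 5) and -0.16 (immunoglobulin constant, 6), and apart from Hba-a2 none of their members had an unadjusted p under 0.05.

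**Figure D3:**
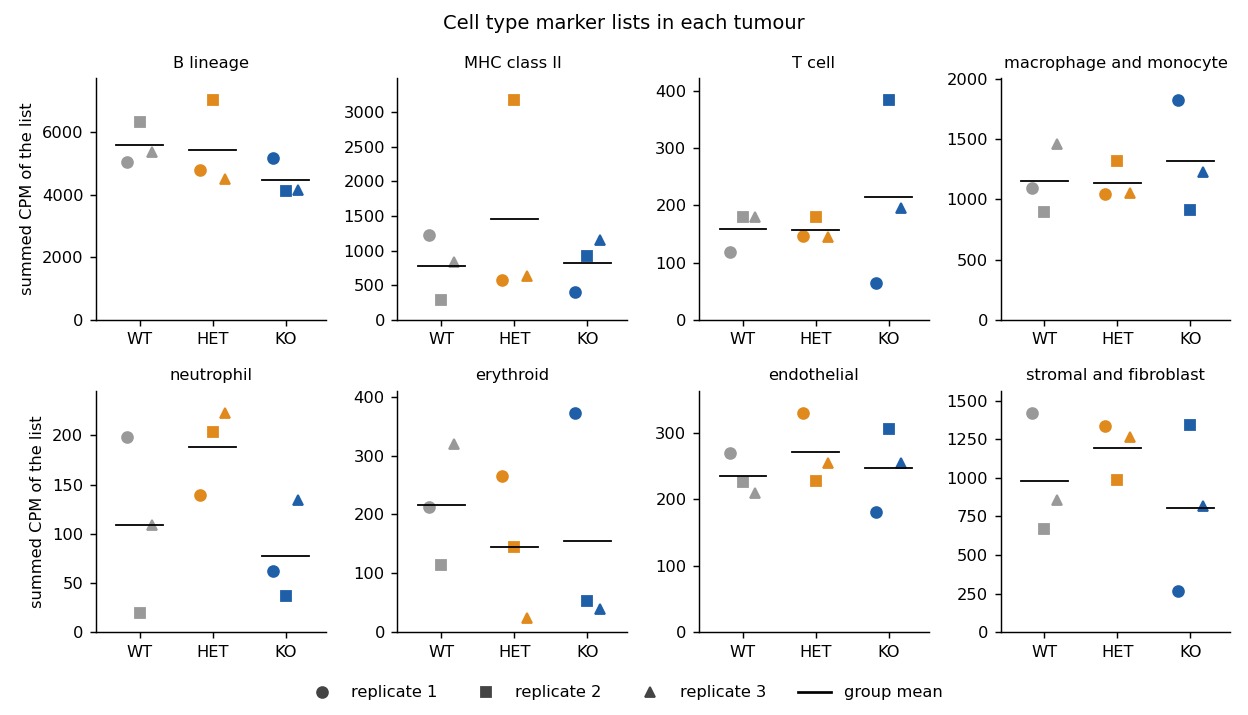
Summed CPM of 8 cell type marker lists in each tumour (linear axes from 0), by genotype, with symbols for replicates and lines for means. The neutrophil sum is 139 to 223 CPM in HET and 36.9 to 134 CPM in KO, while T-cell and stromal sums spread most within KO, with KO1 lowest.

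Within the B lineage, 16 of 18 tested genes were lower in KO, by little: the median log2FC was -0.19, and the summed level was 4519 to 7024 CPM in HET and 4115 to 5165 CPM in KO. Tcf3, which encodes the E2A transcription factors that commit cells to the B lineage, was at 493, 430 and 510 CPM in HET and 334, 315 and 308 CPM in KO, a log2FC of -0.60 ± 0.18 (unadjusted p = 0.0123, DESeq2 p-adj = 0.239). Its groups were tight and separate, and its WT tumours, at 459 to 536 CPM, lay with HET. Cd37, a tetraspanin of mature B cells, had a log2FC of -0.71 ± 0.30 (unadjusted p = 0.0496) with overlapping groups. Cd79a, the signalling chain of the B-cell receptor, was at 511, 929 and 621 CPM against 491, 473 and 466 CPM (log2FC -0.54 ± 0.27).

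Stage markers ranged widely among tumours of 1 genotype. Rag1, the recombinase that is on in pro-B and pre-B cells, was at 248 CPM in HET1, 0.0681 CPM in HET2 and 1.07 CPM in HET3, and at 16.2, 1.40 and 11.9 CPM in KO. Lef1, a factor of early B cells and of T cells, was at 2.70, 2.11 and 4.69 CPM in HET and at 0, 98.2 and 21.0 CPM in KO1 to KO3 (log2FC 3.63 ± 1.63). Cd93, a receptor of immature B cells, had 232, 364 and 68.8 CPM in HET and 57.3, 79.9 and 86.0 CPM in KO, and it alone among the 14 tested pro-B and pre-B genes had an unadjusted p under 0.05 (0.0217). In the mature B list, Cd55, a complement regulator, was the only gene of 15 at that level, with 47.3, 57.7 and 36.0 CPM in HET and 80.3, 67.7 and 59.6 CPM in KO (log2FC 0.54 ± 0.23, unadjusted p = 0.0478).

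All 11 genes of MHC class II antigen presentation were lower in KO, with a median log2FC of -0.93, and none had an unadjusted p under 0.05. HET2 was the highest of the 6 tumours for most of them. The list summed to 3171 CPM in HET2, to 580 and 629 CPM in HET1 and HET3, and to 409, 924 and 1151 CPM in KO, and without HET2 the median log2FC was 0.09, with 4 of the 11 still lower. H2-Eb2, a class II beta chain with the smallest p of the list, went the other way within HET: it was at 19.6, 11.5 and 24.9 CPM in HET and 2.5, 12.9 and 8.16 CPM in KO (log2FC -1.26 ± 0.59, unadjusted p = 0.0697), and its log2FC lay between -1.82 and -0.83 with any 1 tumour left out. Cd74, the invariant chain, was at 1761 CPM in HET2 against 239 to 655 CPM in the other 5. The same tumour was far above the others in Ccnd3, the D-type cyclin of germinal centre and pre-B cells, with 637 CPM against 44.1 to 101 CPM.

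Kappa light chain use in each tumour sample was read from counts over 51 kappa variable segments, which do not single out the receptor of the lymphoma cells. KO1 had 6699 counts over these segments, and 6248 of them, 93.3% (exact binomial 95% interval 92.6 to 93.9), fell on Igkv4-50. KO2 and KO3 had the same leading segment, Igkv8-21, with 385 of 1098 counts (35.1%, 32.2 to 38) and 427 of 1063 counts (40.2%, 37.2 to 43.2), and it had 0 counts in KO1 and 1 to 17 in the HET tumours. Whether KO2 and KO3 are related samples was not tested, and if they are, the KO group holds fewer than 3 independent tumours and the SE and p-values given here are too small. HET2 led with Igkv1-88 at 146 of 367 counts (39.8%, 34.7 to 45.0). HET1 and HET3 had no segment above 11.9% of 354 and 590 counts. The intervals cover counting error only, variable segments that cross-map are uncertain, and segments without a symbol in the annotation were not counted.

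Class-switched heavy chain reads were found in several tumours. Among the 6 tumours, Ighg2c was highest in KO2 and KO3, at 39.5 and 17.5 CPM, and at 0.0843 to 6.88 CPM in the other 4. Igj, the joining chain of secreted antibody, was at 82.0 and 75.1 CPM against 0.172 to 36.1 CPM. Both were also high in WT1. Ighg2c was at 25.7, 3.81 and 3.56 CPM in WT1 to WT3, and Igj at 56.9, 3.3 and 6.75 CPM. Ighg1 and Ighe were highest in HET3, at 188 and 8.39 CPM, against 61.1 and 2.61 CPM in KO2 and 50 and 3.28 CPM in KO3. In WT1 to WT3, Ighg1 was at 49.2, 4.14 and 4.1 CPM. The correlation across genes between KO2 and KO3 was 0.956, while KO3 correlated at 0.963 with HET1 and at 0.958 with HET3. Ighm, the IgM heavy chain, was highest of the 6 tumours in KO1 and HET2, at 5462 and 4672 CPM. It was at 1390 to 2057 CPM in the other 4 (log2FC 0.26 ± 0.62), and at 5050, 1846 and 937 CPM in WT1 to WT3. Without KO3 the edgeR count of called genes was 0 and the DESeq2 counts were 10 higher and 25 lower, and without KO2 the edgeR count was again 0 and the DESeq2 counts were 7 higher and 4 lower.

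**Figure D4:**
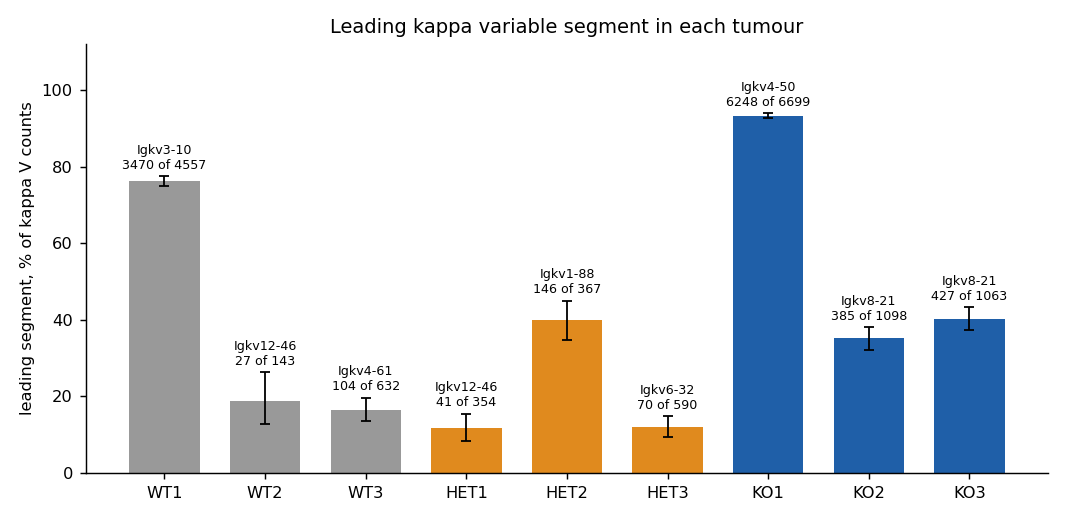
Share of kappa variable counts (%, from 0) on the leading segment of each tumour, with exact binomial 95% intervals as bars and the segment and its counts written above. KO1 has 93.3% on Igkv4-50, whereas KO2 and KO3 share Igkv8-21 at 35.1% and 40.2%.

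Genes of the oncogenic programme differed little. Myc was at 901, 604 and 830 CPM in HET and 862, 812 and 769 CPM in KO (log2FC 0.05 ± 0.23), and 20 of 24 MYC target and ribosome biogenesis genes were higher in KO with a median log2FC of 0.11 and 0 at an unadjusted p under 0.05. The largest of these, Ncl, encoding nucleolin, had a log2FC of 0.57 ± 0.36. In the MYC network the antagonist Mnt was at 52.7, 51.3 and 55.5 CPM in HET and 34.1, 46.5 and 35.1 CPM in KO (log2FC -0.48 ± 0.19, unadjusted p = 0.0392). The 28 cell cycle genes had a median log2FC of -0.06, and Foxm1, a transcription factor of G2 and mitosis, was the one with an unadjusted p under 0.05 (log2FC -0.67 ± 0.26, unadjusted p = 0.0379).

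In the p53 pathway 20 of 25 tested genes were lower in KO (52.3% of autosomal genes were), with a median log2FC of -0.18 and 3 at an unadjusted p under 0.05, all lower (1.67% of autosomal genes). Bbc3, which encodes the BH3-only protein PUMA, was at 4.55, 15.3 and 19.7 CPM in HET and 3.62, 4.45 and 6.10 CPM in KO (log2FC -1.50 ± 0.56, unadjusted p = 0.0315). HET1 lay among the KO tumours, and in the 4 tumours with Xist the log2FC was 0.05. Gtse1, a mitotic p53 regulator, and Gadd45a, a stress sensor, had log2FC of -0.85 ± 0.31 and -1.21 ± 0.51 (unadjusted p = 0.0296 and 0.0468), both with overlapping groups. Trp53 itself was at 180, 123 and 194 CPM against 199, 223 and 161 CPM. Cdkn2a, the Arf and Ink4a locus that EμMyc tumours with lost p53 often express highly, was picked for mention after its values were seen: it had 0.422, 7.97 and 15.9 CPM in HET, 2.58, 2.67 and 3.74 CPM in KO and 0.259 to 11.2 CPM in WT. The 3 KO tumours sat close together, inside the spread of HET. Of the 15 BCL2 family genes, Bbc3 alone was at an unadjusted p under 0.05, and the median log2FC was -0.13.

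Collaborating genes of EμMyc lymphoma (16 tested, median log2FC -0.08) had 0 members at an unadjusted p under 0.05, and so did the genes of PRC1 (19, 0.17), PRC2 (10, 0.12), the NF-kB and B-cell receptor response (19, 0.14) and PPAR-alpha targets (16, 0.07), the numbers in brackets being genes tested and the median log2FC. Among Polycomb genes, Cbx8 was at 7.67, 6.27 and 5.69 CPM in HET and 12.1, 9.92 and 8.77 CPM in KO, without overlap (log2FC 0.64 ± 0.32, unadjusted p = 0.0836). Of the interferon-stimulated genes 21 of 28 were higher in KO, with a median log2FC of 0.47 and again 0 at an unadjusted p under 0.05. The KO tumours did not move together in the summed level. The list summed to 221, 353 and 231 CPM in HET and to 198, 316 and 375 CPM in KO, lowest in KO1. KO1 had 0 counts for 4 members of the list, and no other tumour had a member at 0. Single genes differed in where KO1 lay. Irgm1, with the smallest p of the list, was at 30.6, 32 and 31.2 CPM in HET and 34.4, 42.9 and 43.9 CPM in KO. Its KO1 level was above HET (log2FC 0.36 ± 0.18, edgeR unadjusted p = 0.0934). It was the only tested member without overlap, which 8.55% of autosomal genes showed. Irf7 was at 3.2, 7.02 and 6.68 CPM in HET and 0.861, 10.5 and 12.6 CPM in KO, with KO1 below HET. Rsad2, encoding viperin, was at 2.44, 1.29 and 1.21 CPM in HET and 1.72, 3.43 and 5.72 CPM in KO, with KO1 inside the HET range.

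**Figure D5:**
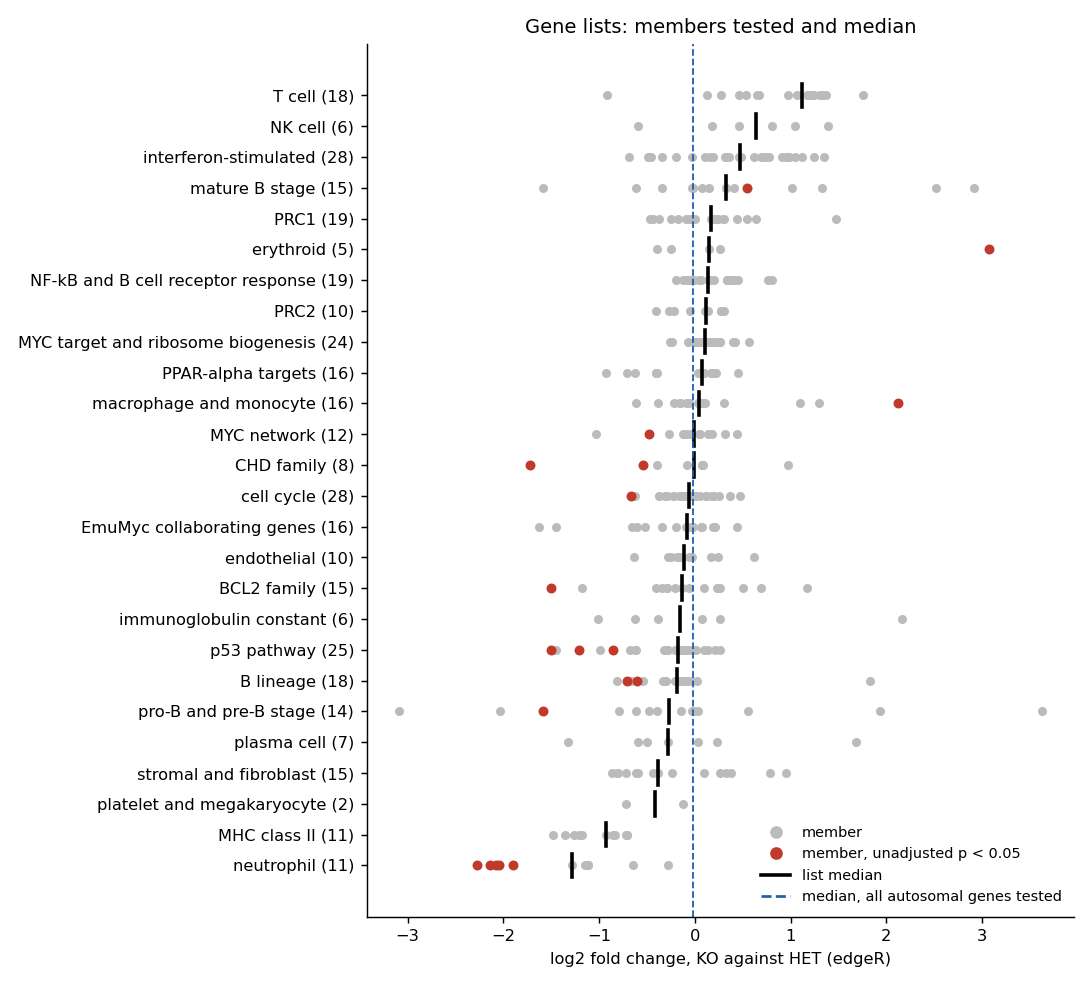
log2FC (x axis, KO against HET) of every tested member of the gene lists, ordered by list median with the number tested in brackets; grey dots are members, red dots those with an unadjusted p under 0.05, black bars list medians and the dashed line the median of all autosomal genes tested (-0.02). The neutrophil list, at -1.28, and the T-cell list, at 1.12, are at the ends, and 5 of the red dots are neutrophil genes.

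Because the mutant allele came from 129P2 cells, the genes beside it were read separately. Within 5 Mb of Chd9 on chromosome 8, 64 genes were tested, 35 higher and 29 lower in KO, with a median log2FC of 0.04, and 0 were called by edgeR, with 0 at an unadjusted p under 0.05. DESeq2 called 0 of them, also with 0 at an unadjusted p under 0.05. Those with the smallest p were Gpr97, an adhesion receptor of leukocytes, Brd7, a bromodomain subunit of the PBAF remodeler, and Nkd1, a WNT inhibitor. Brd7 was at 123, 120 and 114 CPM in HET and 174, 164 and 133 CPM in KO (log2FC 0.39 ± 0.17, unadjusted p = 0.0564). Gpr97 was at 1.60, 1.43 and 1.49 CPM against 0.172, 0.763 and 0.686 CPM (log2FC -1.46 ± 0.63, unadjusted p = 0.0539). Neither pair of groups overlapped, which was so for 8.55% of autosomal genes tested. In WT1 to WT3, Brd7 was at 93.7, 172 and 133 CPM, across both groups, and Gpr97 at 1.31, 0.776 and 0.379 CPM. Gpr97 rested on 19, 21 and 21 counts in HET and 2, 12 and 9 counts in KO.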

How the data were processed

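RNA from snap-frozen EμMyc lymph nodes was prepared with the TruSeq protocol. The authors aligned the reads to mm10 with TopHat and deposited raw counts per Ensembl gene from HTSeq 0.5.3; the strand setting was not given in the sources used here, so overlapping antisense genes may share counts. Symbols and chromosomes came from GENCODE vM1 (21200 of 23156 genes; genes without a match held 1.22% to 3.57% of counts) and positions from RefSeq GRCm38.p6 (19563 genes). The 6 tumours were fitted with edgeR 4.0.16 (R 4.3.3; filterByExpr, TMM, quasi-likelihood F-test, prior count 0.125), and p-values were adjusted by Benjamini-Hochberg over all 13065 genes tested. The SE of a log2FC was its size divided by the square root of F. A call needed p-adj under 0.05 and an absolute log2FC above 1. DESeq2 1.42.0 was an alternative. The biological coefficient of variation was 0.439. Sexes were not part of the design. Replicates are samples numbered in the titles, and are called tumours here. Nothing in the labels says that each came from a different mouse or is an independent tumour. The p-values treat the samples as independent and hold only if they are. Named genes were the CHD family, the 6 smallest p per direction among non-overlapping autosomal genes (p not adjusted, since no gene passed), the 3 smallest p per list and near Chd9 (within 5 Mb) and defining markers; the genes called by DESeq2 were added after their values were seen. The members and the 26 lists were chosen with earlier results of these data known. The scripts were tested on simulated data.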

Additional observations from a re-analysis of the deposited data

How the results depend on the processing

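The counts of called genes stayed at 0 higher and 0 lower in each edgeR fit: with DESeq2 size factors, without a filter on low counts, with a mean of at least 10 counts, with all 9 tumours in 1 fit, with adjusted p alone, with adjustment over autosomal genes alone, with unplaced genes added, and in the 4 tumours with Xist. DESeq2 called 6 higher and 5 lower, and, in fits chosen after seeing the data, 4 and 2 with all 9 tumours and 7 and 9 without the filter. Over the fits with 1 tumour left out, edgeR and DESeq2 together, the counts ran from 0 to 33 higher and from 0 to 25 lower. The 33 came from the DESeq2 fit without HET2 and the 25 from the one without KO3. The cause of the difference between the tools was not tested. Chd9 kept its direction throughout and passed only under DESeq2, with log2FC of -1.71 with 6 tumours, -1.71 with 9 and -1.70 without the filter; with 1 tumour left out it lay between -1.90 and -1.55.

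The sample titles and descriptions number HET3 and the 3 KO tumours differently, and the description of HET3 opens with another number than those of the other lymphomas, whose meaning is not given. The residuals of same-numbered HET and KO tumours, by title, correlated at r = 0.121, -0.0119 and 0.318. The last, HET3 with KO3, was the highest of all HET and KO pairs. HET1 also correlated best with the KO tumour of its number, while HET2 correlated best with KO1 (0.152). Whether same-numbered tumours were matched was not tested. With the replicate number as a block edgeR called 0 genes in each direction, and Chd3 had a log2FC of -0.36.

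In the 4 tumours with Xist, a choice made after seeing the data, 10 named genes changed sign: Chd8 (log2FC 0.05), Derl3 (0.94), H2-Oa (0.11), Hbb-b1 (-0.74), Pdgfrb (0.26), Ighg1 (2.25), Bbc3 (0.05), Ccnd3 (0.67), Ehhadh (0.59) and Nkd1 (0.05). There the list medians moved by more than the spread between tumours to 0.78 (mature B), 1.41 (NK cell), -0.84 (platelet) and 2.37 (immunoglobulin constant). With 1 tumour left out, log2FC changed sign for 14 named genes, with ranges of -0.29 to 0.32 (Chd1), -0.90 to 0.68 (Chd3), -0.20 to 0.28 (Chd4), -0.25 to 0.13 (Chd8), -2.17 to 0.31 (H2-Oa), -1.70 to 0.42 (Hba-a1), -1.71 to 1.28 (Hbb-b1), -1.17 to 0.18 (Pf4), -0.54 to 0.17 (Itga2b), -1.58 to 1.15 (Ighg1), -0.40 to 1.01 (Ighm), -1.58 to 0.15 (Bik), -2.11 to 0.68 (Ccnd3) and -0.04 to 1.83 (Cd3e). The medians of 3 lists also moved: 0.90 for mature B genes without HET2, -1.70 for erythroid genes without KO1 and 0.00 for platelet genes without HET1. Genes within 2 and 10 Mb of Chd9 had medians of -0.09 and -0.07. With 3 tumours per genotype and this spread, differences of several fold and more may go undetected. In edgeR, Chd9 (3.29-fold lower in KO) and 1700048O20Rik (14.9-fold lower) both had p-adj = 0.999. A count of 0 called genes therefore does not show that no gene differed.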

Other observations

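Heat shock genes were not among the lists, and the following were chosen after their values were seen. Fold changes and unadjusted p-values are from edgeR. Hsp90aa1, the inducible cytosolic HSP90, was at 551, 583 and 630 CPM in HET and 1475, 1486 and 825 CPM in KO, without overlap, with WT at 605 to 1116 CPM (log2FC 1.09 ± 0.29, unadjusted p = 0.00731, DESeq2 p-adj = 0.0866). Hsph1, a nucleotide exchange factor for HSP70, was at 83.0, 67.1 and 73.6 CPM against 130, 238 and 121 CPM, again without overlap (log2FC 1.11 ± 0.29, unadjusted p = 0.00581, DESeq2 p-adj = 0.219). Its WT tumours were at 139, 108 and 80.4 CPM, with WT1 inside the KO range and WT3 inside the HET range. Dnaja1, an HSP40 co-chaperone, was at 107, 84.8 and 122 CPM against 138, 202 and 134 CPM (log2FC 0.58 ± 0.23, unadjusted p = 0.0416). KO2 was the highest of the 6 for all 3 genes.

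Other genes of the response did not separate the genotypes: Hspa8 had a log2FC of 0.71 ± 0.35, Hsp90ab1 of 0.31 ± 0.32, Hspd1 of 0.58 ± 0.35 and Dnajb1 of 0.29 ± 0.21, each with overlapping groups. Hspa1a, the strongly heat-inducible HSP70, was below 1 CPM in all 9 tumours and Hspa1b was at 0.545 to 1.26 CPM in HET and 0.258 to 3.05 CPM in KO. Cirbp, which is induced by cold and is described above, was lower in all 3 KO tumours, whereas Rbm3, the other cold-inducible RNA-binding protein, was at 748, 503 and 673 CPM in HET and 696, 418 and 608 CPM in KO (log2FC -0.17 ± 0.27).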
